A study of Mus musculus with 21 samples.

Results

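The protein subunits of the cytosolic ribosome were followed as transcripts in whole mouse liver. Members were the rows of the deposited table whose symbol in the platform annotation is Rpl or Rps with a number and an optional letter, together with Rpsa, Rplp0, Rplp1 and Rplp2. Pseudogene symbols, the Rps6k kinases and the -like genes ending in l were left out. The rule found 54 of 25428 rows, 33 of the large and 21 of the small subunit. RefSeq lists 76 protein-coding mouse genes with such symbols. Of the genes outside the 54 members, 17, Rplp2, Rps6 and Rpl11 among them, were not analysed here.

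The series compared 10 Gata4-LSEC-KO livers, called knockout livers here, with 11 control livers. The knockout mice joined a floxed Gata4 allele (Gata4tm1.1Sad) to a Clec4g-icre driver transgene (C57BL/6N-Tg(Clec4g-icre)1.1Sgoe), and Clec4g is a lectin gene of the sinusoidal endothelium of the liver, so the deletion was aimed at endothelial cells and not at hepatocytes. Control mice were siblings labelled wt, and the labels do not say whether they carried the floxed allele or the driver. All mice were on the diet labelled std, and the labels give neither age nor sex. Total RNA of each liver was read on 1 Affymetrix array as log2 RMA values, and each array was taken as 1 animal. Sample numbers fall into 2 consecutive runs, with 4 knockout and 5 control livers in run 1 and 6 of each in run 2, and run was a term of the fit.

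Gata4 itself had log2 values of 6.10, 6.51 and 6.92 (lowest, median, highest) in knockout livers, against 6.34, 6.68 and 7.35 in control livers. It differed by -0.19 ± 0.10 (SE; adjusted p = 0.264) and so did not pass. The place of its probes relative to the deleted part is not known here. Whole liver also holds cells at which the deletion was not aimed. The Gata4 value therefore checks nothing about the labels. The tissue label was borne out by 9 hepatocyte markers, such as Alb and Apoa1, with mean log2 values between 12.17 and 13.77 per gene. Markers of blood and resident immune cells differed with genotype. At adjusted p under 0.05 (limma), 5 of 7 B and plasma cell and 5 of 7 Kupffer cell markers were higher in knockout livers. So were 2 of 5 monocyte, 3 of 8 T and NK cell and 1 of 7 neutrophil markers. Lower were 5 of 8 sinusoidal endothelial markers. Of the hepatocyte markers 1 was higher and 1 lower, and of 4 erythroid markers 0 passed. Of all rows, 3.28% were higher and 4.05% lower. At an unadjusted p under 0.05, 7 of 7 neutrophil markers were higher, with a median difference of 1.52. So were 6 of 7 B and plasma cell, 6 of 7 Kupffer cell and 4 of 5 monocyte markers. The same held for 4 of 8 T and NK cell and 1 of 4 erythroid markers, and the other erythroid differences were below 0. Of the 9 hepatocyte markers 3 were higher and 1 lower, and of the 8 sinusoidal endothelial markers 6 were lower. Of all rows, 9.41% were higher and 13.0% lower at that threshold. In a whole liver, fewer cells of a type and less RNA per cell cannot be told apart.

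Ribosomal proteins bind the ribosomal RNAs to form a small subunit, which decodes the mRNA, and a large subunit, which joins the amino acids. Their genes are active in every cell, and the subunits are made in matched amounts, with surplus protein degraded. The mRNAs of vertebrate ribosomal proteins typically begin with a C followed by a run of pyrimidines, the terminal oligopyrimidine or TOP motif, through which mTOR and LARP1 set their translation. Hepatocytes, which secrete most plasma proteins, are rich in ribosomes. The array reads only mRNA level, so ribosome number and translation were not measured.

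The start sites were set out for the members Rps4x, Rps21 and Rpl5, with the bright large subunit genes Rpl4 and Rpl15 and the paralogs Rpl22l1 and Rpl36al. RefSeq promoters of GRCm38.p6 were at hand for 42 of the 54 members, and the first listed start of each gene was used. Each line runs 5′ to 3′ on the gene's strand, from 50 bases before the annotated start to 10 bases from the start on, and capitals mark the longest run of at least 6 pyrimidines in that window.
Rps4x (chrX:102189382-102189441, minus strand): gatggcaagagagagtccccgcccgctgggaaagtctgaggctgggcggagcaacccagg
Rps21 (chr2:180257329-180257388, plus strand): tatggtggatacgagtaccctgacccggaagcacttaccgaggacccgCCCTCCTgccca
Rpl5 (chr5:107900478-107900537, plus strand): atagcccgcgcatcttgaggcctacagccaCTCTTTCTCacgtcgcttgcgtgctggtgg
Rpl4 (chr9:64173337-64173396, plus strand): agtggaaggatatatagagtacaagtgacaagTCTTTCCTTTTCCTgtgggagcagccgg
Rpl15 (chr14:18270977-18271036, minus strand): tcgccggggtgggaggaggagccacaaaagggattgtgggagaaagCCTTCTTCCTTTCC
Rpl22l1 (chr3:28805458-28805517, plus strand): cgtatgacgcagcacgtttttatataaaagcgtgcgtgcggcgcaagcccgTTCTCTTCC
Rpl36al (chr12:69184058-69184117, minus strand): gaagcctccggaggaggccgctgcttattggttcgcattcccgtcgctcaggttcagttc
Rpl4 and Rpl15 have long pyrimidine runs close to the annotated start, and Rpl5 has one shortly before it. The run of Rpl22l1 lies just after its start, and that of Rps21 spans 7 bases. Rps4x and Rpl36al have no run of 6 in this window. A run of 8 or more C or T bases on the gene's strand, within 50 bases on either side of the start, was found for 32 of the 42 members (76.2%), against 35.7% of all 27025 genes with a listed promoter. The letters CCGGAA, the core bound by ETS factors, lay on either strand within the 250 bases before and 50 after the start in 18 of 42 members (42.9%), against 15.2% of all genes. Its reverse complement TTCCGG begins with pyrimidines and so can overlap such a run. AAGATGG, which contains the core bound by YY1, was found on either strand in the same window in 6 members (14.3%, against 6.48%). TATAA stood on the gene's strand in the 50 bases before the start in 3 members (7.14%, against 5.33%). These matches describe the letters only.

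Most ribosomal protein transcripts had no genotype difference that passed the threshold. Of the 54 members, 1 was higher in knockout livers at an adjusted p under 0.05 (limma, Benjamini-Hochberg over all rows), the small subunit gene Rps4x, and 0 were lower. That is 1.85% of the members, where 7.33% of all rows passed, 3.28% of them higher and 4.05% lower. At an unadjusted p under 0.05, 9 members stood out, 4 higher and 5 lower, which is 16.7% of the members against 22.4% of all rows. The higher ones were 7.41% of members, against 9.41% of all rows, and the lower ones 9.26%, against 13.0%. The median difference of the members was -0.016 on the log2 scale, with 26 above and 28 below 0, and that of all rows was -0.013. Knockout and control livers overlapped in every member, and were fully apart in 0.130% of all rows.

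The 95% intervals bound the difference in array signal of each member. Whether the signal of dim rows follows their mRNA level was not tested. The 95% interval of the difference lay within -1 and 1 on the log2 scale for 52 of 54 members (96.3%). It lay within -0.5 and 0.5 for 39 (72.2%). Over all rows these shares were 97.3% and 85.9%. The members outside the wider bound were Rps4x and Rpl29. The standard error of a member had a median of 0.115, against 0.078 over all rows. Genotype differences ran from -0.48 for Rps19 to 0.69 for Rps4x.

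**Figure D1:**
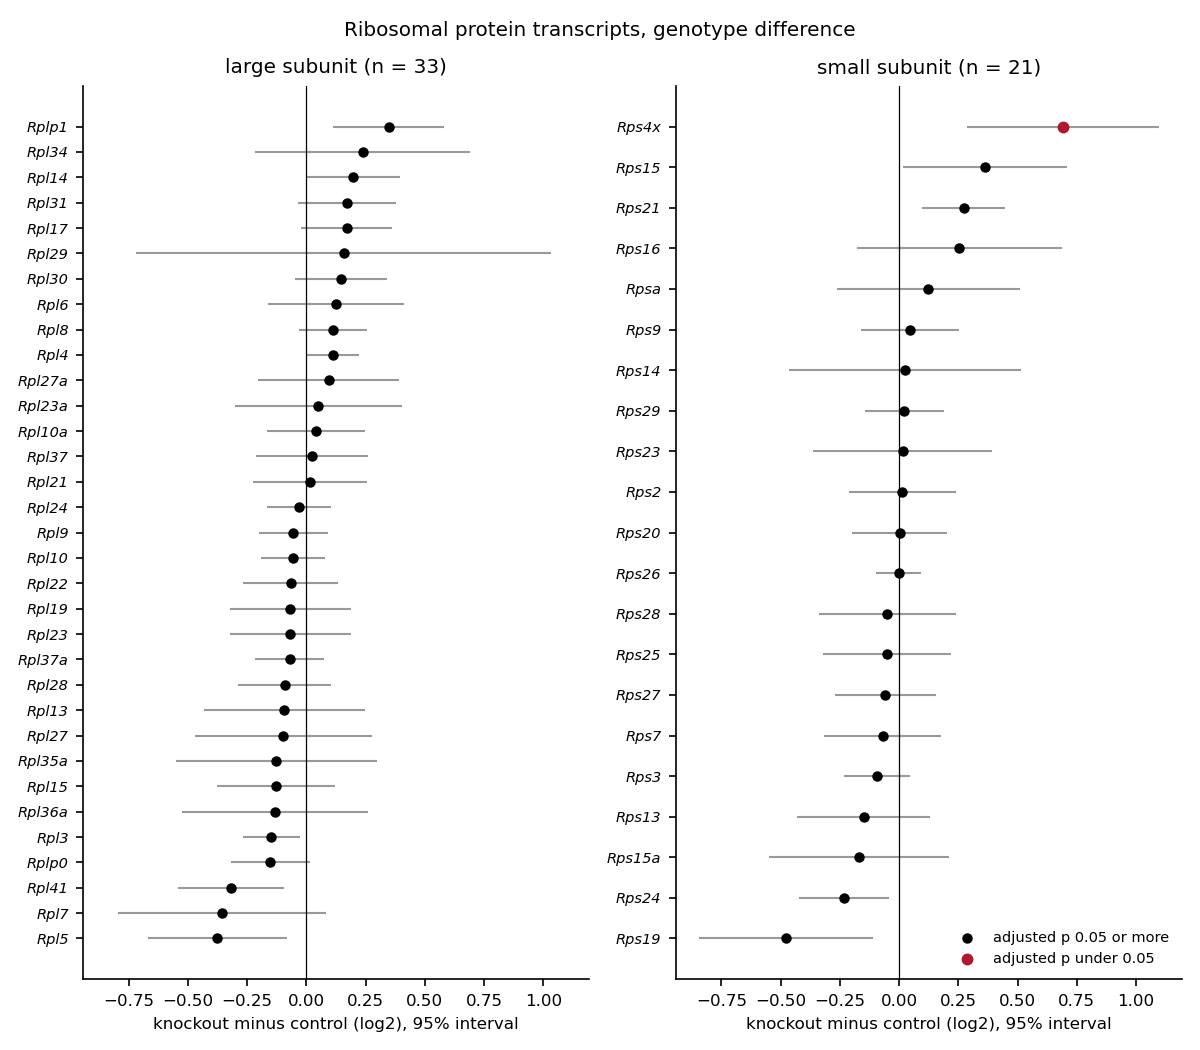
Knockout minus control difference of every member on the log2 scale (horizontal axis), with its 95% interval as a bar, for 33 large subunit genes (left panel) and 21 small subunit genes (right panel). Most intervals cross 0, and Rps4x, in red, was the member that passed.

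The signal of a row limits what can be read from it. Ribosomal protein mRNAs are abundant in most cells, yet 26 of the 54 members had a mean log2 value under 3.75, the median of all values on the arrays, and 20 more lay between that and the upper quartile of 6.12. Scanner files were not used here, so whether the dim rows lie near background was not tested. Ribosomal protein genes also have many processed pseudogenes of near-identical sequence, and whether probes are shared with these was not tested. Only 8 members lay at or above the upper quartile, namely Rpl4, Rplp1, Rpl8, Rps21, Rps9, Rpl23, Rpl15 and Rps3, a set drawn after the values were seen. Their median difference was 0.078, 5 were above and 3 below 0, and 0 passed. The 20 members of middle signal had a median of -0.081 and the 26 dim ones 0.0077.

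**Figure D2:**
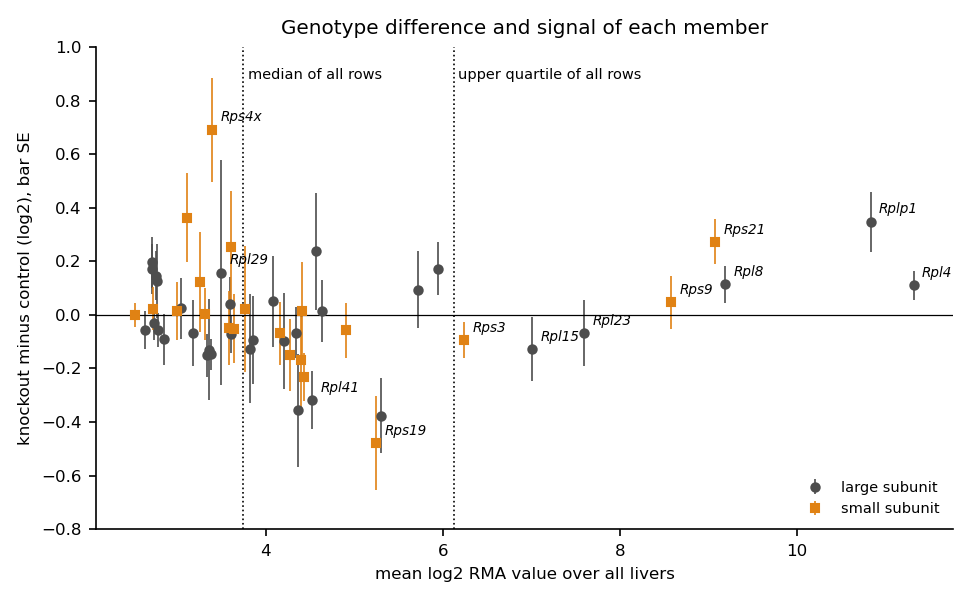
Genotype difference (vertical axis, log2, bar SE) against the mean log2 RMA value over all 21 livers (horizontal axis) for each member, by subunit, with dotted lines at the median and upper quartile of all values. The 8 members right of the upper quartile lie between -0.13 and 0.35, and Rps4x lies left of the median.

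In the small subunit, Rps4x rose. Its gene, which encodes a structural protein of the small subunit, is on the X chromosome. It had log2 values of 3.08, 3.59 and 5.19 (lowest, median, highest) in knockout livers, against 2.38, 3.13 and 3.50 in control livers. The ranges overlapped, and 5 of 10 knockout livers lay above the highest control. The mean was 3.77 ± 0.65 (SD, n = 10) in knockout and 3.05 ± 0.34 (SD, n = 11) in control livers. The difference was 0.69 ± 0.19 (SE), 1.61-fold, with an adjusted p of 0.0345 in limma's fit. It was 0.36 in run 1 and 0.93 in run 2, a change between runs that did not pass its own test (adjusted p = 0.654).

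The call of Rps4x was lost without any 1 of 5 livers, knockout replicate 8 or control replicate 2, 8, 9 or 10, where the adjusted p reached 0.0672. Without knockout replicate 9, the liver with the highest value, the difference was 0.55 (adjusted p = 0.0389). Rps4x was a dim row, with a mean log2 value of 3.39 over all livers. Xist, the RNA of the inactive X chromosome, had values from 10.45 to 10.90 in knockout and from 10.46 to 10.97 in control livers. The livers did not divide by it, and it was high in every liver, above the upper quartile of all values (6.12). The mean log2 value of the 7 B and plasma cell markers ran from 5.21 to 7.20 in knockout livers, against 4.10 to 5.81 in control livers. For the 7 Kupffer cell markers it ran from 7.05 to 8.09 in knockout livers, against 5.72 to 7.76 in control livers, and for the 5 monocyte markers from 4.73 to 6.82 in knockout livers, against 4.09 to 5.11 in control livers. For the 7 neutrophil markers it ran from 3.43 to 9.08 in knockout livers, against 3.04 to 3.29 in control livers. The RMA scale has no zero, so the absence of a marker cannot be read from it, and the part of these markers in the Rps4x result was not tested.

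Rps21, a small protein of the small subunit, was a bright row with a steady difference that missed the threshold. Its log2 values were 8.98, 9.21 and 9.56 in knockout livers, against 8.61, 8.98 and 9.34 in control livers. All 10 knockout livers lay above the control mean of their run, and 2 above the highest control. The difference was 0.27 ± 0.084 (SE; adjusted p = 0.0518), 0.32 in run 1 and 0.24 in run 2. It passed without any 1 of 6 livers, knockout replicate 2 or 5 or control replicate 1, 5, 6 or 9, and did not without the other 15.

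Rps19, in which loss of function mutations cause Diamond-Blackfan anaemia in humans, had the most negative difference of the members. It had log2 values of 4.30, 5.05 and 5.44 in knockout livers, against 4.75, 5.33 and 6.26 in control livers. All 10 knockout livers were below the control mean of their run, and the groups overlapped. The difference of -0.48 ± 0.18 (SE) did not pass (adjusted p = 0.102), and it did not pass in any of the 30 alternative fits.

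Rps24, also mutated in that anaemia, had values of 3.99, 4.33 and 4.58 in knockout livers, against 4.20, 4.52 and 4.93 in control livers. Its difference was -0.23 ± 0.091 (SE; adjusted p = 0.126), with all 10 knockout livers below the control mean of their run. Rps15, a protein of the head of the small subunit, had values of 2.64, 3.22 and 4.07 in knockout livers, against 2.50, 2.88 and 3.39 in control livers. The 4 highest knockout values of Rps15 lay above all controls, and the difference of 0.36 ± 0.17 (SE) did not pass (adjusted p = 0.198). Rps15a differed by -0.17 ± 0.18 (adjusted p = 0.646).

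Rps3 lines the channel through which mRNA enters the ribosome, and Rps9 is an early-binding protein of the small subunit. Rps3 had values of 5.93, 6.18 and 6.42 in knockout livers, against 6.06, 6.26 and 6.60 in control livers, a difference of -0.095 with a 95% interval of -0.23 to 0.044. Rps9 had values of 8.41, 8.55 and 8.87 in knockout livers, against 8.29, 8.40 and 9.13 in control livers, a difference of 0.046 with an interval of -0.16 to 0.25. Of 10 knockout livers, 3 lay below the lowest control for Rps3 and 0 for Rps9, and the groups overlapped in both. Rps26 had the smallest spread of any member among controls (run-centred SD 0.11) and a difference of -0.0016 ± 0.046. It was also the dimmest member, with a mean log2 value of 2.53, under the lower quartile of all values (2.98). Whether its small spread comes from low signal was not tested. Rps27 differed by -0.058 ± 0.10. The 11 small subunit members not described singly were Rps16, Rps13, Rpsa, Rps7, Rps25, Rps28, Rps29, Rps2, Rps14, Rps23 and Rps20. Their differences ran from -0.15 to 0.25, and the lowest adjusted p was 0.523.

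In the large subunit, 0 of 33 members passed in either direction in limma's fit, and 4 had an unadjusted p under 0.05, Rplp1 with a positive and Rpl41, Rpl5 and Rpl3 with a negative difference. Rplp1 is an acidic protein of the stalk that recruits elongation factors. It had log2 values of 10.35, 11.07 and 11.74 in knockout livers, against 10.19, 10.68 and 10.96 in control livers. Of 10 knockout livers, 6 lay above the highest control, and the lowest knockout liver lay inside the control range. The difference was 0.35 ± 0.11 (SE), 1.27-fold, with an adjusted p of 0.0646. It passed without knockout replicate 2 or 6 (adjusted p = 0.0249 and 0.0349). Rplp0, which anchors the stalk to the ribosome, was a dim row with values of 2.84, 3.30 and 3.42 in knockout livers, against 3.14, 3.39 and 3.74 in control livers. The difference of Rplp0 was -0.15 ± 0.081 (SE; adjusted p = 0.278), opposite in sign to that of Rplp1.

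Rpl5 carries the 5S ribosomal RNA with Rpl11 and, when not assembled, binds the p53 regulator Mdm2. It had log2 values of 4.38, 5.19 and 5.71 in knockout livers, against 5.07, 5.43 and 5.85 in control livers. Of 10 knockout livers, 5 lay below the lowest control, while the highest knockout liver, replicate 9, lay near the top of the control range. The difference was -0.38 ± 0.14 (SE; adjusted p = 0.108), and -0.45 without that liver (adjusted p = 0.0392). Rpl41 encodes a very short basic peptide that bridges the subunits. Its values were 4.06, 4.40 and 4.65 in knockout livers, against 4.004, 4.72 and 5.05 in control livers. The lowest of all 21 livers for Rpl41 was a control, replicate 1. The difference was -0.32 ± 0.11 (SE; adjusted p = 0.076), -0.093 in run 1 and -0.49 in run 2, and without control replicate 1 it was -0.39 (adjusted p = 0.0077).

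Rpl4 lines the exit tunnel of the nascent chain, and Rpl8 borders the peptidyl transferase centre. Rpl4, a bright row with the smallest standard error of the large subunit, had values of 11.21, 11.37 and 11.57 in knockout livers, against 11.12, 11.25 and 11.58 in control livers. Its difference was 0.11 ± 0.054 (SE; adjusted p = 0.227), and the 95% interval ended at 0.22. Rpl8 had values of 8.97, 9.21 and 9.63 in knockout livers, against 8.94, 9.18 and 9.27 in control livers, and a difference of 0.11 with an interval of -0.029 to 0.26. Rpl15 had values of 6.58, 6.91 and 7.46 in knockout livers, against 6.44, 7.15 and 7.55 in control livers, and a difference of -0.13 with an interval of -0.38 to 0.12. Rpl23, like Rpl5 a binder of Mdm2, had values of 7.08, 7.58 and 7.87 in knockout livers, against 7.07, 7.55 and 8.22 in control livers. Its difference was -0.069, with an interval of -0.32 to 0.19.

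Rpl29 varied most among controls (run-centred SD 0.92) with Rpl34 next (0.71). Rpl29 had values of 2.78, 3.13 and 6.10 in knockout livers, against 2.82, 3.02 and 5.37 in control livers, and its difference was 1.08 in run 1 and -0.52 in run 2. A few livers of either genotype were far above the rest in Rpl29, and the change between runs did not pass (adjusted p = 0.507). Rpl34 differed by 0.24 ± 0.22, Rpl14 by 0.20 ± 0.096, Rpl7 by -0.36 ± 0.21 and Rpl3, a protein of the peptidyl transferase centre, by -0.15 ± 0.058 (SE; adjusted p from 0.129 to 0.582). The 17 large subunit members not described singly or beside a paralog were Rpl17, Rpl31, Rpl30, Rpl37a, Rpl28, Rpl6, Rpl9, Rpl27a, Rpl35a, Rpl13, Rpl19, Rpl27, Rpl24, Rpl10a, Rpl23a, Rpl37 and Rpl21. Their differences ran from -0.13 to 0.17, and the lowest adjusted p was 0.29.

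**Figure D3:**
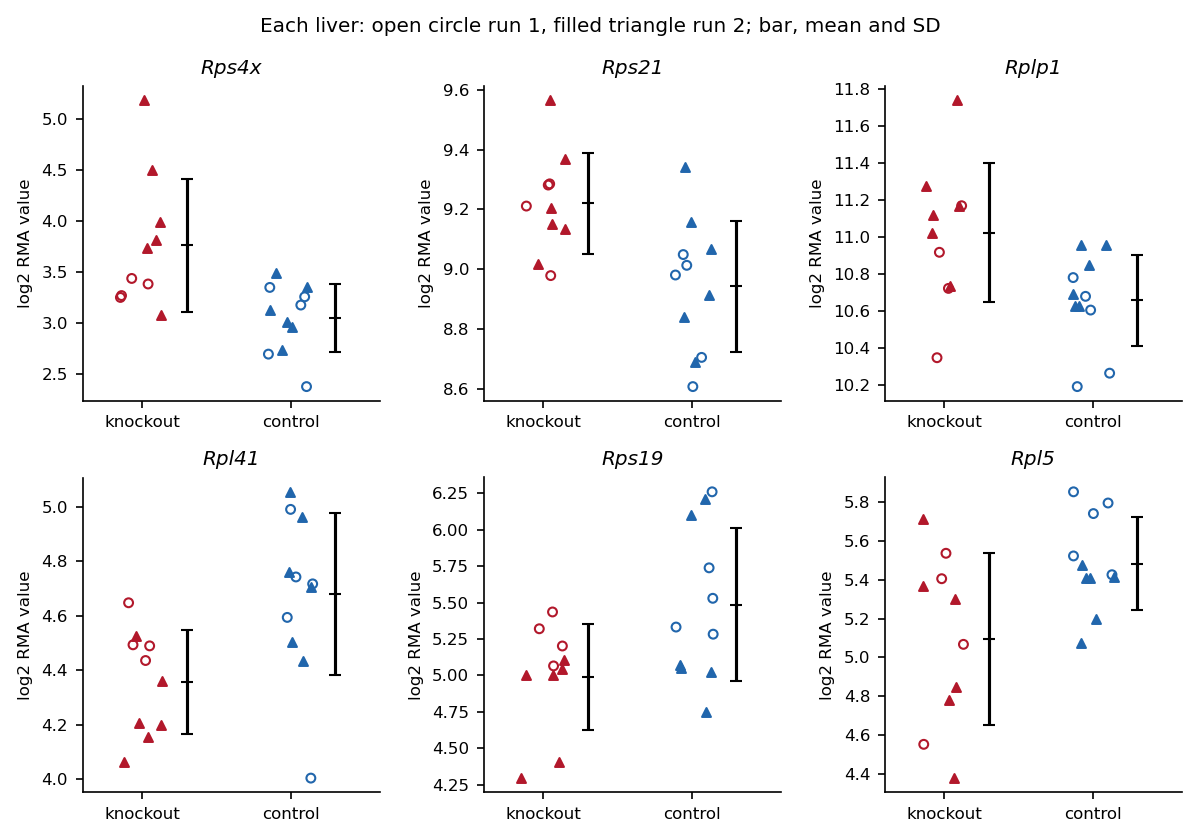
Log2 RMA values (vertical axes) of the 3 members with the lowest p in each direction, in 10 knockout (left, red) and 11 control livers (right, blue), with run 1 as open circles, run 2 as filled triangles and bars for mean and SD. Rps4x, Rps21 and Rplp1 sit higher and Rpl41, Rps19 and Rpl5 lower in knockout livers, with overlap in each, and Rps4x is the 1 that passed.

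The subunits were compared as groups without a test, since members are not replicates. The median difference was -0.056 over 33 large subunit members (middle range from -0.098 to 0.11 between quartiles) and 0.0017 over 21 small subunit members (from -0.07 to 0.046). Of the large subunit members 15 were above and 18 below 0, and of the small subunit members 11 and 10. The mean shift per liver, over members and relative to the control mean of the run, had a lowest, median and highest value of -0.15, -0.024 and 0.25 for the large subunit in knockout livers, against -0.17, -0.0035 and 0.10 in control livers. For the small subunit these were -0.25, 0.031 and 0.22 in knockout livers, against -0.12, -0.016 and 0.18 in control livers. The large minus small shift ran from -0.19 to 0.15 in knockout livers, against -0.21 to 0.12 in control livers. The genotypes overlapped in all of these, apart from 1 or 2 knockout livers at the ends.

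Those ends were knockout replicates 9 and 10. Knockout replicate 9 had the highest shift of both subunits (0.25 and 0.22). For 13 of the 54 members and 4 of the 8 bright ones it was the highest of all 21 livers relative to its run. The share of all rows in which this liver was highest was not counted, so these counts cannot be called particular to ribosomal proteins. Controls were centred on their own mean, which by itself favours knockout livers at the ends. Knockout replicate 9 was not high in every member: it was the lowest knockout liver for Rpl3, Rpl28, Rps19 and Rps20. Knockout replicate 9 also had the highest mean shift of all 21 livers for 49 factors of ribosome assembly (0.47) and for 15 genes of the RNA polymerase that transcribes ribosomal RNA (0.29). For the mitochondrial ribosomal proteins its shift was -0.0072. Its hepatocyte markers were 0.12 above the control mean of the run, the highest of all 21 livers. Its Kupffer cell markers were 1.29 and its B and plasma cell markers 1.40 above that mean, with 1 and 2 livers above it, and their part in its ribosomal protein values was not tested. Knockout replicate 10 had the lowest shift of the small subunit (-0.25), yet its shift was 0.27 for the assembly factors and 0.18 for the polymerase genes, with 2 livers and 1 liver above it. Without knockout replicate 9, 1 member was higher (Rps4x) and 1 lower (Rpl5).

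**Figure D4:**
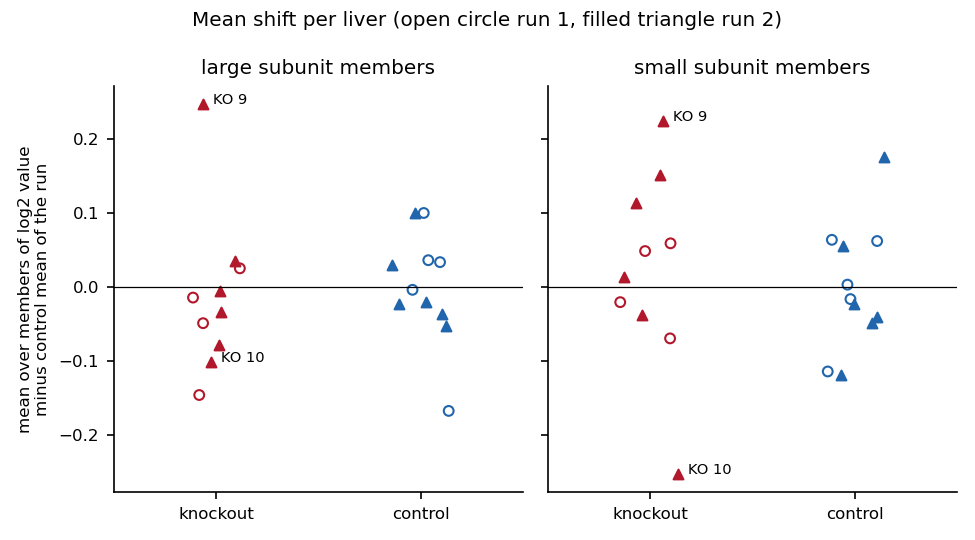
Mean shift over members, in log2 units relative to controls from the matching run (vertical axis), for each liver, for the large (left panel) and small subunit (right panel), with run 1 as open circles and run 2 as filled triangles. Knockout replicate 9 is highest in both panels at 0.25 and 0.22, and knockout replicate 10 is lowest for the small subunit.

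Between runs, 0 of 54 members passed in limma's fit, where 4.11% of all rows did, and 7 had an unadjusted p under 0.05 (13.0% of members, against 16.7% of all rows). The genotype difference changed between runs in 0 members, and in 0.0315% of all rows. At an unadjusted p under 0.05 it did in 4 members (7.41%, against 10.2% of all rows). The median genotype difference of the members was -0.048 in run 1 and 0.018 in run 2, against -0.017 and -0.01 for all rows.

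Subunit genes that the naming rule misses, and paralogs of members, were read beside them. Fau, whose product is cleaved to yield a small subunit protein, differed by -0.16 ± 0.12 (SE), and Rps3a1 by -0.069 ± 0.18, and neither passed.

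Of 8 measured -like paralogs, 2 fell and 0 rose (limma, adjusted p under 0.05), where 4.05% of all rows were lower and 3.28% higher. Their median difference was -0.20. Rpl22l1, which can take the place of Rpl22 in the ribosome and acts against it in blood cell development in zebrafish, had log2 values of 9.07, 9.60 and 9.83 in knockout livers, against 9.30, 9.95 and 10.50 in control livers. All 10 knockout livers were below the control mean of their run, and 4 lay below the lowest control. Rpl22l1 fell by 0.41 ± 0.12 (SE), 1.33-fold, with an adjusted p of 0.0417. Its difference was -0.35 in run 1 and -0.45 in run 2. Rpl36al had values of 5.69, 5.96 and 6.35 in knockout livers, against 5.92, 6.34 and 6.59 in control livers, and fell by 0.30 ± 0.089 (adjusted p = 0.0417) with all 10 knockout livers below the control mean of their run. Each call stood close to the threshold. That of Rpl22l1 was lost in 14 of the 21 fits that leave out 1 liver and that of Rpl36al in 13, with adjusted p up to 0.0806 and 0.0808, while the differences stayed between -0.46 and -0.36 for Rpl22l1 and between -0.35 and -0.27 for Rpl36al. That of Rpl22l1 was also lost with array weights (adjusted p = 0.0543) and without the run term (0.0672), and that of Rpl36al with an intensity trend and robust prior (0.0557). The call of Rpl22l1 held without knockout replicate 6 or 7 or control replicate 1, 2, 5, 10 or 11. That of Rpl36al held without knockout replicate 1, 5, 6 or 8 or control replicate 1, 3, 9 or 11.

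Rpl7l1, a paralog that works in the making of the large subunit, had a difference of -0.38 ± 0.13 (SE; adjusted p = 0.0908). Rps27l, a target of p53, had one of 0.11 ± 0.077 and Rps4l one of -0.28 ± 0.22. Rpl3l, of heart and skeletal muscle, and Rpl10l and Rpl39l, of the testis, were dim, with mean log2 values of 3.35, 2.93 and 3.58, and differences of -0.098, -0.017 and -0.13. None of these passed.

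For 7 pairs of a paralog and the member of its name stem, the difference of the 2 genotype differences was tested by an exact two-sided permutation of genotype within runs (116424 arrangements), with p-values adjusted over the 7 pairs. Rpl22l1 and Rpl22 (-0.41 and -0.066) differed by -0.34 (adjusted p = 0.41), and Rpl36al and Rpl36a (-0.30 and -0.13) by -0.17 (adjusted p = 0.582), so a fall of the paralog without its partner was not shown. Rps4l and Rps4x (-0.28 and 0.69) differed by -0.97, with a p of 0.00826 before adjustment and an adjusted p of 0.0578 by the exact permutation test. The other 4 pairs, with Rpl3, Rpl7, Rpl10 and Rps27, had adjusted p-values from 0.413 to 0.926 by the exact permutation test.

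**Figure D5:**
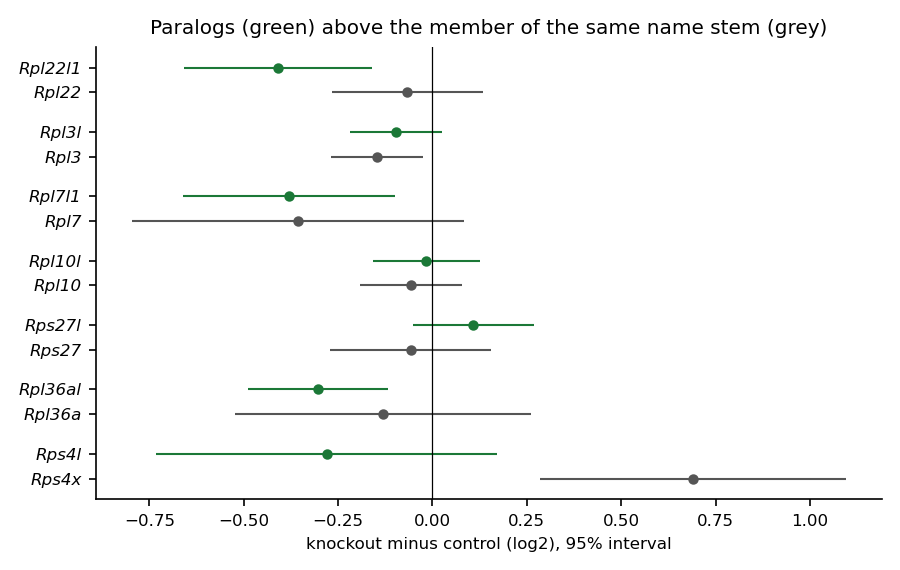
Knockout minus control difference (log2, horizontal axis, bar 95% interval) of 7 paralogs (green), each above the ribosomal protein gene of its name stem (grey). Rpl22l1 at -0.41 and Rpl36al at -0.30 have intervals below 0, and Rps4x at 0.69 has an interval above 0.

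The genes that build, regulate or resemble the cytosolic ribosome were counted from lists chosen with earlier results of these data known. The counts that follow stand against 7.33% of all rows past the threshold, 3.28% higher and 4.05% lower. At an unadjusted p under 0.05 in limma, 22.4% of all rows stood out, 9.41% higher and 13.0% lower. Of 49 ribosome assembly factors, 1 rose and 1 fell, with a median of 0.082, and 6 were higher and 5 lower at an unadjusted p under 0.05. Nop56, a core protein of the particles that methylate ribosomal RNA, rose by 0.56 ± 0.16 (SE) with an adjusted p of 0.039. Its difference was 0.15 in run 1 and 0.87 in run 2. It had values of 7.19, 7.65 and 8.65 in knockout livers, against 6.70, 7.21 and 7.79 in control livers. Npm1, the nucleolar chaperone nucleophosmin, fell by 0.55 ± 0.16 (adjusted p = 0.0433). Its difference was -0.16 in run 1 and -0.83 in run 2. It had values of 3.81, 4.9995 and 5.84 in knockout livers, against 4.91, 5.61 and 6.05 in control livers. Without 1 liver at a time, the call of Nop56 was lost in 11 of 21 fits, and held without any 1 of knockout replicates 3 to 7 or of control replicates 1, 3, 5, 10 and 11. That of Npm1 was lost in 13, and held without knockout replicate 2, 4, 5 or 6 or control replicate 1, 2, 3 or 11. Without the run term it had an adjusted p of 0.0823. For Nop56 it was 0.058 with array weights.

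Of 15 genes of RNA polymerase I and its factors, 0 passed in limma's fit and 4 had an unadjusted p under 0.05, led by Cd3eap, a subunit of the enzyme (0.33 ± 0.10, SE; adjusted p = 0.0544). Of 16 measured translation genes with TOP mRNAs, 0 passed in limma's fit and 1 had an unadjusted p under 0.05, the elongation factor Eef2 (0.12 ± 0.048; adjusted p = 0.133). Of 17 genes of mTOR signalling and the MYC network, 3 were higher and 1 lower at an unadjusted p under 0.05. Past the adjusted threshold 1 rose, Max, the partner of MYC (0.31 ± 0.091; adjusted p = 0.0438). Its difference was -0.027 in run 1 and 0.55 in run 2, and its call was lost in 14 of 21 fits without 1 liver, holding without knockout replicate 1, 2, 4 or 6 or control replicate 1, 3 or 5. Of 11 p53 targets 0 passed in limma's fit and 4 had an unadjusted p under 0.05, with Mdm2 first by p (0.25 ± 0.086; adjusted p = 0.0771).

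The mitochondrial ribosome is a separate particle with its own nuclear-encoded proteins. Of 76 measured Mrpl and Mrps genes, 6 fell and 0 rose, where 4.05% of all rows were lower and 3.28% higher. Of the 76, 54 were below 0, and the median was -0.077, against -0.013 over all rows. At an unadjusted p under 0.05, 16 were lower and 6 higher, where 13.0% of all rows were lower and 9.41% higher. Mrpl1 fell by 0.32 ± 0.06 (SE; adjusted p = 0.00388), with values of 6.504, 6.65 and 7.003 in knockout livers, against 6.70, 6.97 and 7.33 in control livers. Mrpl40 fell by 0.37 ± 0.078 (adjusted p = 0.0079), with values of 6.62, 6.92 and 7.19 in knockout livers, against 6.97, 7.32 and 7.60 in control livers. In each, 6 knockout livers lay below the lowest control, and both calls held in all 21 fits that leave out 1 liver. Over all 30 alternative fits in limma, the call of Mrpl1 held in 29 and that of Mrpl40 in 28. The adjusted p reached 0.322 for Mrpl1 and 0.177 for Mrpl40. Mrpl9 fell by 0.33 ± 0.089 with an adjusted p of 0.0299. That call did not hold without knockout replicate 4 or 7 or control replicate 8 or 9. Whether the counts of cytosolic and mitochondrial proteins differ was not tested.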

How the data were processed

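Values were deposited on the log2 scale, and the submitters' processing notes name RMA as the tool. Each row of the table is 1 Entrez gene number. RMA corrects background, brings arrays to 1 distribution by quantiles and summarises probes, so a shift common to all genes cannot be seen. Neither the RMA version nor the design of the array or a genome build is stated in the labels. Scanner files were not used, and the number of arrays limits the precision.

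All 25428 rows were fitted without a filter on genotype and run in limma 3.58.1 (R 4.3.3; functions lmFit and eBayes), and Benjamini-Hochberg adjustment ran over all rows at a threshold of 0.05. Differences are knockout minus control with their standard error, and means are given with the SD over animals. The labels call the samples biological replicates, so each array was taken as 1 animal. Symbols came from the platform annotation (24705 rows had 1 symbol, 723 none), and promoters from RefSeq GRCm38.p6.

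Named were members that passed, the 3 largest differences in each direction per subunit, rule-missed genes, paralogs and their partners, leading genes of each list, and the members with the widest and narrowest control spread. Named beyond that rule, after values were seen, were the bright members and Rplp0. Some genes outside the members are not reported here. The members and lists were chosen with earlier results of these data known. Alternatives dropped or changed the run term, scaling, filter, prior, weights or 1 liver at a time. Figures were drawn with matplotlib 3.10.9.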

Additional observations from a re-analysis of the deposited data

Results flagged for a closer look

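Over the 54 members, the other named genes and 4 mean shifts, 77 values in all, 7 were set apart in the knockout group of 10 livers by the ratio of the gap at 1 end to the whole range (Dixon's ratio, past its 95% critical value). Chance alone sets apart about 1 in 20 groups, and groups of 11 were not examined. Rpl7 had a ratio of 0.588, with knockout replicate 9 at 5.08 and the next highest at 4.34. Rplp0 had a ratio of 0.573, with knockout replicate 7 at 2.84 and the next lowest at 3.17. Rps26 had a ratio of 0.552, with knockout replicate 10 at 2.69 and the next highest at 2.56. Rpl27 had a ratio of 0.493, with knockout replicate 9 at 5.45 and the next highest at 4.52. Mdm2 had a ratio of 0.523, with knockout replicate 9 at 6.97 and the next lowest at 7.33. The mean shift of the large subunit had a ratio of 0.538, with knockout replicate 9 at 0.25 and the next highest at 0.036. The mean shift of the 8 bright members had a ratio of 0.507, with knockout replicate 9 at 0.39 and the next highest at 0.15. The shifts are means over members and so share values with single genes.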

How the results depend on the processing

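Of the 54 members, 1 was higher and 0 were lower as reported. The count of higher members was 0 with the replicate number as a block beside run, 0 within run 1, 0 within run 2 and 2 (Rplp1 and Rps21) with rows under the median left out, where Rps4x was not tested. Without 1 liver at a time it ran from 0 to 3. It was 0 without knockout replicate 8 or control replicate 2, 8 or 10, 3 without knockout replicate 2, and 2 without knockout replicate 5 or 6 or control replicate 1, 4, 5 or 6. The count of lower members was 1 (Rpl41) with array weights, 2 (Rpl3 and Rpl41) within run 2, and from 0 to 1 without 1 liver, with 1 without knockout replicate 9 or control replicate 1 or 2. The median differences moved by less than the spread between livers under every alternative. Without 1 liver at a time they ran from -0.062 to -0.020 for the large and from -0.033 to 0.012 for the small subunit. The large subunit median was -0.084 within run 1 and 0.013, of the other sign, within run 2. The small subunit median was -0.033 within run 1, 0.039 within run 2, -0.070 with rows under the median left out and -0.0011 with array weights.

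Same-numbered livers did not deviate together over all rows (correlations from -0.17 to 0.082 over 10 pairs, with the livers numbered 5 in different runs). Such correlations cannot exclude a link between same-numbered livers. Under the replicate block Rps4x was 0.73 (adjusted p = 0.0987), and Rpl36al (0.0536), Npm1 (0.0778) and Max (0.100) also lost their call, 4 of 45 named genes in all. All 45 kept direction and side of the threshold with arrays centred on their median and under a second quantile normalization. With array weights Rpl22l1, Nop56 and Max lost their call, while Rpl41 and Mdm2 passed. With an intensity trend and robust prior Rpl36al and Max lost theirs, and without the run term Rpl22l1, Npm1 and Max did. Within run 1 alone 8 of the 45 named genes lost their call with direction kept, and within run 2 alone 5 did.

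Some differences turned sign, and of these genes only Max had passed as reported. Within run 1, Rpl3l was 0.067, Rpl10l 0.037, Rpl3 0.0089, Rpl23 0.029, Rpl4 -0.0028, Rps9 -0.047 and Max -0.027. Within run 2, Rpl10 was 0.010, Rpl36a 0.076, Rps26 0.021 and Rpl29 -0.52. Rpl10l was 0.0095 with array weights, and Rps26 was 0.029 under the replicate block. Without 1 liver, Rps3a1 was 0.019 (without knockout replicate 10) or 0.058 (without control replicate 8), Rpl10l 0.015 or 0.016 (without knockout replicate 7 or 9) and Rpl29 -0.16 (without knockout replicate 3). Rps26 was between 0.0033 and 0.027 in 6 such fits, with 0.0048, 0.0065, 0.0033 and 0.0051 without knockout replicates 1, 2, 6 and 9, and 0.027 and 0.0060 without control replicates 5 and 6. Over all fits without 1 liver the other end of the range was -0.15 for Rps3a1, -0.054 for Rpl10l, -0.018 for Rps26 and 0.37 for Rpl29. The cause was not tested.

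The number of arrays and the low signal of many members limit these results. Each value of a member depends on probes whose sequences were not used, and a shift of all ribosomal protein mRNAs together with most other genes would be removed by RMA.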
